A study of Mus musculus with 16 samples.

Results

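The genes described here are those of the epidermal differentiation complex, a dense cluster on mouse chromosome 3. They were taken from the gene count table by name: every Lce and Sprr gene with a number and every S100a gene whose name ends in its number. Ivl, Lor, Flg, Flg2, Hrnr, Rptn, Crnn, Tchh, Tchhl1 and Crct1 were added by name. S100a7a, which lies between the members, is therefore not among them. The rule found 61 genes among the 55487 genes of the table. It reads gene names and no measured value, but it was chosen with earlier results of these data known. RNA-seq was run on urogenital sinus (UGS) epithelium, the tissue from which prostate buds grow, of male C57BL/6J mouse fetuses at E16.75 (embryonic day). TCDD, a dioxin that activates the aryl hydrocarbon receptor (AHR), was given orally to the dams on E13.5 at 5 µg/kg by the sample labels and the methods, although the design text of the series gives 1 µg/kg. The results text of the paper puts this dosing at a later embryonic day, so the length of exposure before collection is not settled. Vehicle dams received corn oil at 5 mL/kg. Each group held 4 pools of 5 or 6 dissected epithelia, freed from mesenchyme with trypsin, collagenase and dissection, and each pool was sequenced on 2 lanes. Nothing in the labels says which litters went into which pool, so the spread between pools is what the tests below measure.

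Keratinocytes that leave the basal layer build a cornified envelope under the plasma membrane, a sheet of proteins cross-linked by transglutaminases. Involucrin (Ivl) forms an early scaffold of this sheet, loricrin (Lor) is its main late component in skin, and the small proline-rich proteins (Sprr) and late cornified envelope proteins (Lce) bridge and reinforce it. The fused-type S100 proteins, filaggrin (Flg), filaggrin 2 (Flg2), hornerin (Hrnr), repetin (Rptn), cornulin (Crnn) and the trichohyalins (Tchh, Tchhl1), join calcium-binding domains to long repeats, and filaggrin packs keratin filaments in the skin. The S100a genes encode small calcium-binding proteins, many of which are made outside the skin as well. Several of these genes are known to be raised by dioxin in skin keratinocytes, which is background and not a result of these libraries.

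Over both lanes a pool held 22254896 to 28146766 read pairs counted on genes. Levels are given as CPM, the counts of a gene per 1e+06 counts of its library, scaled by TMM, the trimmed mean of M-values. Cyp1a1, the classical AHR target, chosen for a check of the labels with its values known, had 160, 205 and 241 CPM in TCDD replicates 2 to 4 and 129 CPM in TCDD replicate 1, against 0 to 0.0723 CPM in the vehicle pools. The study removed TCDD replicate 1 as an outlier, so the tests below use 7 pools, and TCDD replicate 1 or the 8-pool test is given beside the main results. Epithelial markers (Cdh1, Epcam, Krt5, Krt8, Krt14, Krt18) summed to 6362 to 7040 CPM in TCDD replicates 2 to 4 and 7265 CPM in TCDD replicate 1, against 5823 to 6124 CPM in the vehicle pools. Krt8 and Krt18 were called higher by the edgeR test below over 7 and over 8 pools, and the other 4 were not. Means in TCDD replicates 2 to 4 and vehicle pools were 1365 and 964 CPM for Krt8 and 736 and 413 CPM for Krt18. They were 310 and 267 CPM for Krt14 and 1427 and 1418 CPM for Cdh1. Krt5 had 2339 and 2407 CPM, and Epcam had 477 and 524 CPM. The sums alone therefore do not show more epithelium with TCDD.

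In 7 pools, 20 of the 61 genes had enough counts to be tested, and 14 of these rose with TCDD exposure, 0 fell and 6 did not pass (edgeR quasi-likelihood F-test, Benjamini-Hochberg adjusted p of at most 0.05). Among all 14233 tested genes, 11.9% were called higher and 11.2% lower. The stricter TREAT test, which asks for a change beyond 1.5-fold, called 10 of the 20 higher and 0 lower, against 2.59% higher and 1.44% lower of all tested genes. The median log2 fold change was 1.104 over the 20 genes and −0.0024 over all tested genes. With all 8 pools, 12 of 19 tested members were called higher and 0 lower, against 7.41% and 6.00% of 14051 genes. TREAT then called 4 higher (Ivl, Crnn, Hrnr and Lce6a) and 0 lower, against 0.925% and 0.448%. The filter on low counts was passed by 18 of the 20 through the vehicle pools alone, and 12 of these 18 rose. Sprr2a1 and Lce6a reached it only through the TCDD pools, so their difference was built into their selection. Both are among the 10 called by TREAT over 7 pools, and Lce6a is among the 4 over 8 pools. Both also enter the median above and the 7-pool count of separate groups below, and Lce6a enters the 8-pool count. In bulk RNA, more cells of a type and more RNA per cell cannot be told apart.

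The TCDD pools lay wholly above the vehicle pools for 14 of the 20 tested members over 7 pools, which was so for 15.5% of all tested genes. Over 8 pools this held for 10 of the 20, against 9.43% of all tested genes. Counts on the 61 genes together made up 0.439% to 0.483% of all gene counts in TCDD replicates 2 to 4 and 0.329% in TCDD replicate 1, against 0.259% to 0.299% in the vehicle pools. The other 41 genes stayed below the filter. Of these, 22 had no read pair in any of the 8 pools and 19 had some.

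**Figure D1:**
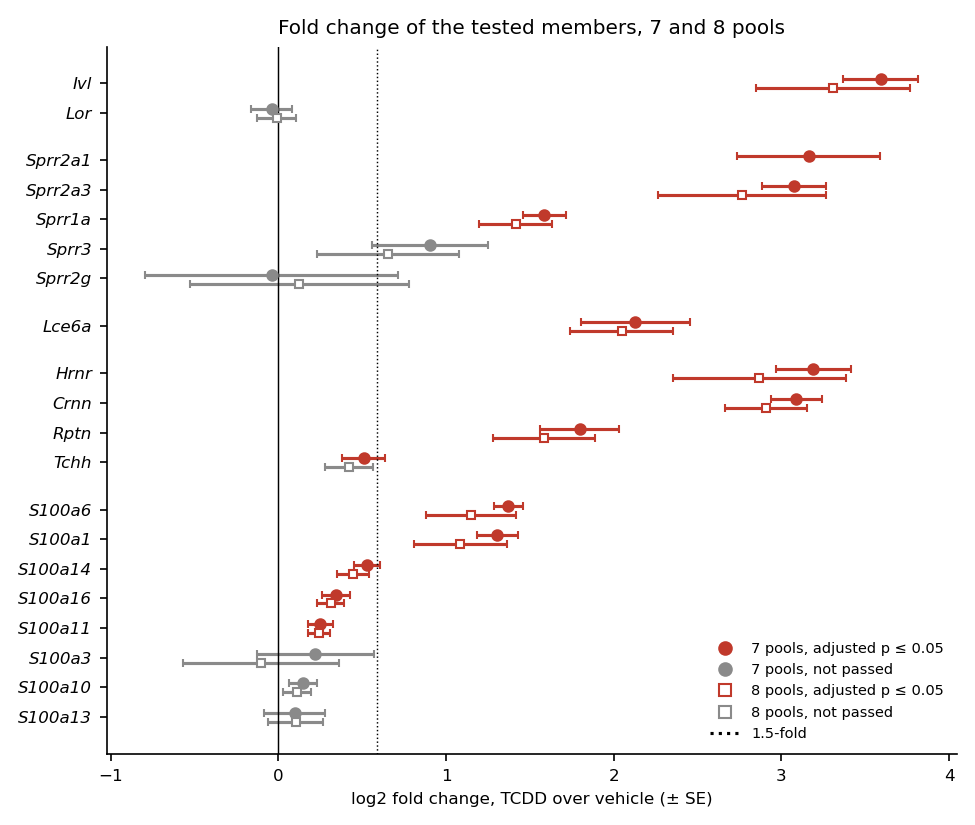
Log2 fold change of the 20 tested members (x axis, TCDD over vehicle, ± SE) by gene (y axis, grouped by role), with filled circles for 7 pools and open squares for 8 pools, red where the quasi-likelihood adjusted p was at most 0.05 and grey where it was not. The 14 red circles all lie to the right of 0, and Ivl, Hrnr, Sprr2a1, Crnn and Sprr2a3 lie beyond 3.

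The starts of 6 genes were picked for display with their motifs and calls known. That 5 of them hold the same short motif, and that 4 of those 5 rose, follows from this choice. RefSeq windows of 300 bases, 250 before and 50 after each annotated start on GRCm38.p6, were found for 53 of the 61 members, and 3 motifs were searched on both strands: GCGTG, the core bound by AHR with ARNT, TGANTCA, the AP-1 motif, and TGANNNNGC, the core of the antioxidant response element. The stretches are the 150 bases before the start, written 5′ to 3′ on the strand of the gene, with each TGANTCA match in capitals. They lie at chr3:92573736-92573885 (minus strand) for Ivl, chr3:92083143-92083292 (minus strand) for Lor, chr3:92485882-92486031 (minus strand) for Sprr1a, chr3:93144639-93144788 (plus strand) for Crnn, chr3:93393549-93393698 (plus strand) for Rptn and chr3:92285154-92285303 (plus strand) for Sprr2a3.
Ivl: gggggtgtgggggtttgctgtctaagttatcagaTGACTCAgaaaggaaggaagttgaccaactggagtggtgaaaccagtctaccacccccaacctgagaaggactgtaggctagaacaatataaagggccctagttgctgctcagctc
Lor: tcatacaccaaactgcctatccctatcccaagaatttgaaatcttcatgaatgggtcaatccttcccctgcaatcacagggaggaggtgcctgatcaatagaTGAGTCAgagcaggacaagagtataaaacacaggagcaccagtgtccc
Sprr1a: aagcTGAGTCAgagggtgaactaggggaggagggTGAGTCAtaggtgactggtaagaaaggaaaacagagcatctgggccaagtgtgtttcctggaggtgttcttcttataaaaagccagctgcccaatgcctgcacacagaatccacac
Crnn: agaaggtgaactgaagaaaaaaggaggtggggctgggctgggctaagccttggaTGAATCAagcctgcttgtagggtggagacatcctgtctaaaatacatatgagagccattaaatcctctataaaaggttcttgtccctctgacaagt
Rptn: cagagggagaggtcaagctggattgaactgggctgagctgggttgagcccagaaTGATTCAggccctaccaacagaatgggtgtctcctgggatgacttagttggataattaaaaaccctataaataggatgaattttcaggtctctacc
Sprr2a3: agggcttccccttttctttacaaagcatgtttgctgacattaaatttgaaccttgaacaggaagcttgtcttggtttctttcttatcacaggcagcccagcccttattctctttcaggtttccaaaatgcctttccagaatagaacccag
The match begins 116 bases before the start in Ivl, 96 in both Crnn and Rptn and 48 in Lor, whose level did not pass the test. Sprr1a holds it 146 and 116 bases before the start, and the farther match overlaps a TGANNNNGC match. Sprr2a3, which rose, holds none of the 3 motifs in its window.

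TGANTCA occurred in 31.6% of the 57 windows of members (some genes have several), against 7.81% of all 32851 windows of the RefSeq table. By gene, it was in 18 of 53 members, in 6 of the 13 that rose and have a window (Crnn, Ivl, Rptn, S100a11, S100a16 and Sprr1a), in 1 of 4 that did not pass (Lor) and in 11 of 36 that were not tested. GCGTG occurred in 8.77% of member windows, against 32.4% of all, and in 0 of the 13 genes that rose. TGANNNNGC occurred in 50.9% of member windows, against 41.3% of all. Related genes of 1 family share their sequence by descent, so these windows are not independent, and a match is a description and not a site. Both the members and the motifs were chosen with earlier results of these data known. Outside this window no sequence was searched.

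Ivl had the largest log2 fold change of the tested members over 7 pools, and Lor did not pass the test. Without vehicle replicate 4 the log2 fold change of Sprr2a1 (3.68) exceeded that of Ivl (3.60), and without vehicle replicate 2 that of Hrnr (3.40) came close to that of Ivl (3.42). Ivl had 353, 244 and 295 CPM in TCDD replicates 2 to 4 and 82.3 CPM in TCDD replicate 1, against 29.3, 15.6, 28.8 and 25.5 CPM in vehicle replicates 1 to 4. All TCDD pools, replicate 1 included, exceeded the highest vehicle pool, and the lowest level was in vehicle replicate 2. The mean was 298 ± 54.5 CPM with TCDD (SD, n = 3) and 24.8 ± 6.35 CPM with vehicle (SD, n = 4), a 12.0-fold ratio of means and a log2 fold change of 3.59 ± 0.225 (SE, edgeR adjusted p = 3.33e-05, TREAT adjusted p = 0.000113). Over 8 pools the log2 fold change was 3.31 ± 0.458 (SE, edgeR adjusted p = 0.00346).

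Lor had 66.6, 69.6 and 47.0 CPM in TCDD replicates 2 to 4 and 65.6 CPM in TCDD replicate 1, against 64.0, 56.4, 63.1 and 68.2 CPM in the vehicle pools. The groups overlapped, and TCDD replicate 4 was the lowest pool. The log2 fold change was −0.04 ± 0.122 (SE, edgeR adjusted p = 0.856), and −0.0099 ± 0.116 over 8 pools (edgeR adjusted p = 0.969). Per kilobase of exon, which allows genes to be set beside each other, the level of Ivl was 155 CPM with TCDD and 12.9 CPM with vehicle, and that of Lor was 34.3 CPM with TCDD and 35.4 CPM with vehicle. On this scale Lor was the higher of the pair in vehicle pools and Ivl in TCDD pools. Ivl lies at chr3:92570902-92573735 and Lor at chr3:92080271-92083142, both on the minus strand of GRCm38.

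**Figure D2:**
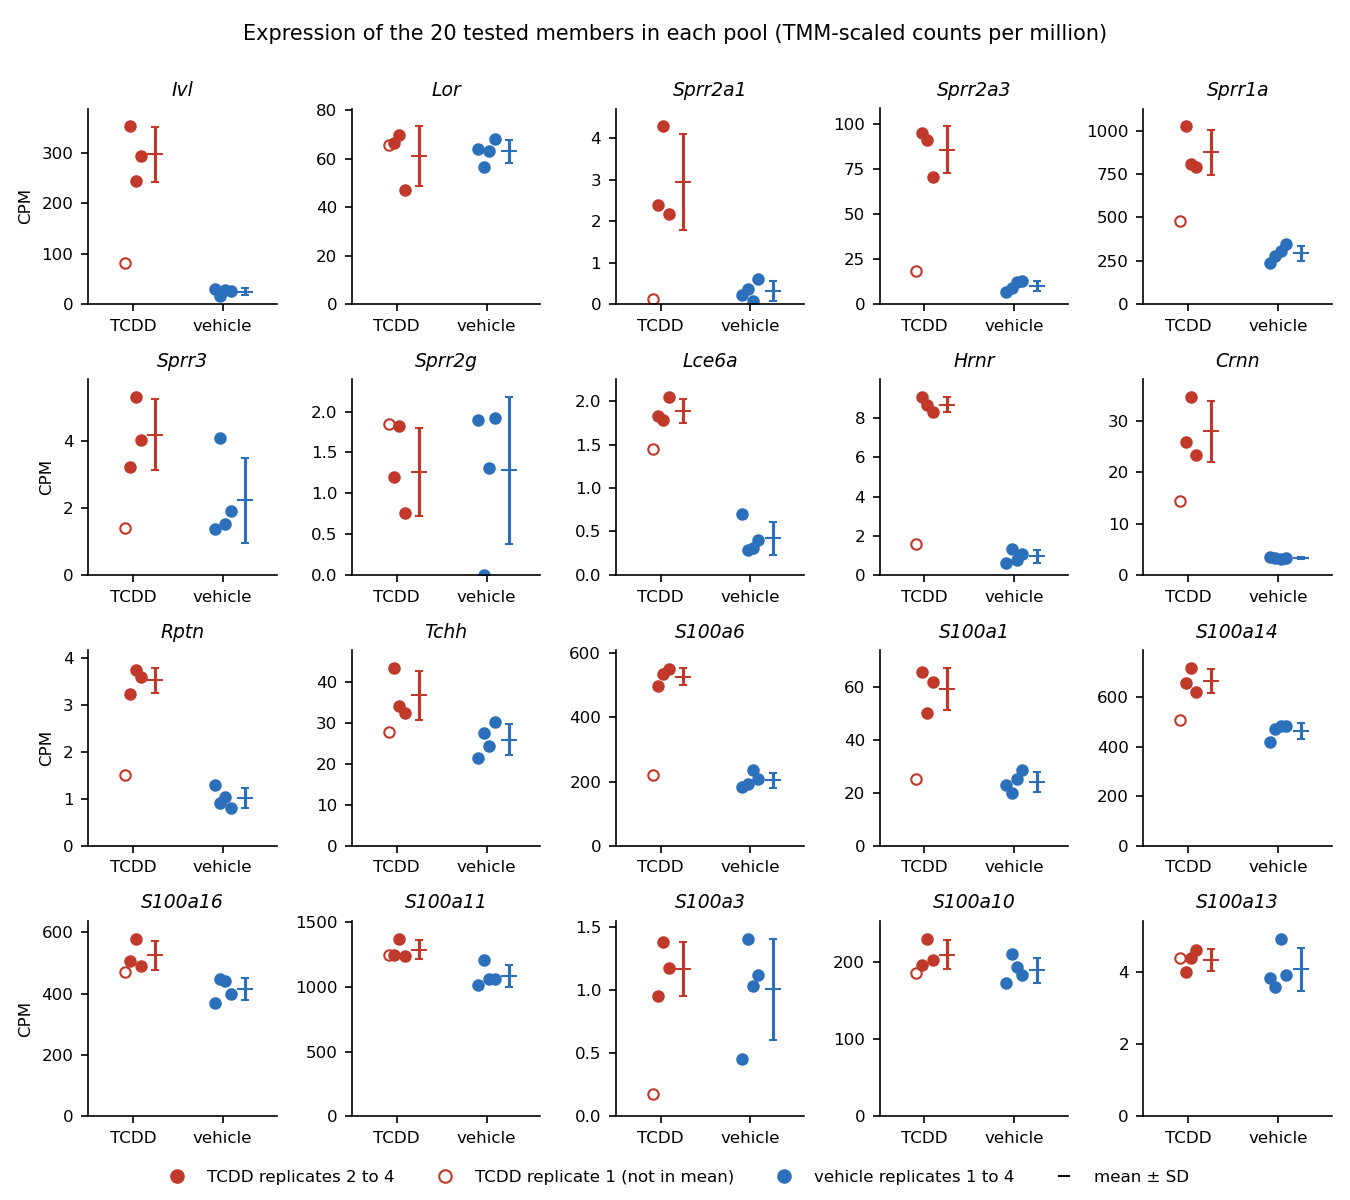
Level of each tested member (y axis, CPM from 0, scaled to the gene) in each TCDD pool (red, left) and each vehicle pool (blue, right), with the mean ± SD beside them (TCDD n = 3, vehicle n = 4) and TCDD replicate 1, which is in no mean, as an open circle. Ivl, Crnn, Sprr1a and Lce6a show TCDD replicate 1 above all vehicle pools, and S100a6 and S100a1 show it among them.

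Of the 17 Sprr genes, 5 were tested, 3 rose and 2 did not pass, where 11.9% of all tested genes rose. Sprr2a1, 1 of the 3, reached the filter only through the TCDD pools. Over 8 pools 2 of 4 tested Sprr genes rose and TREAT called 0, against 7.41% and 0.925% of all tested genes. Sprr1a, which encodes an envelope bridging protein, accounted for 88.6% to 90.9% of the CPM of all Sprr genes in TCDD replicates 2 to 4 and 95.6% in TCDD replicate 1, against 95.2% to 95.7% in vehicle pools. Its levels were 1025, 809 and 791 CPM in TCDD replicates 2 to 4 and 479 CPM in TCDD replicate 1, against 239, 278, 308 and 346 CPM in vehicle replicates 1 to 4. All TCDD pools lay above all vehicle pools. Its log2 fold change was 1.59 ± 0.128 (SE, edgeR adjusted p = 1.10e-05), and 1.42 ± 0.218 over 8 pools (edgeR adjusted p = 0.00415).

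Sprr2a3 reached 95.0, 91.0 and 70.7 CPM in TCDD replicates 2 to 4 and 18.6 CPM in TCDD replicate 1, against 6.87, 9.00, 12.1 and 12.9 CPM in the vehicle pools. The groups did not overlap, but TCDD replicate 1 lay much nearer to the vehicle pools than to its own group. In edgeR the log2 fold change was 3.07 ± 0.191 (SE, edgeR adjusted p = 6.80e-06), and 2.76 ± 0.502 over 8 pools (edgeR adjusted p = 0.0105). Its near copy Sprr2a1 had 2.39, 4.28 and 2.16 CPM in TCDD replicates 2 to 4 and 0.132 CPM in TCDD replicate 1, against 0.210, 0.362, 0.0767 and 0.616 CPM in the vehicle pools. TCDD replicate 1 fell among the vehicle pools here. The log2 fold change was 3.16 ± 0.427 over 7 pools (SE, edgeR adjusted p = 0.000130), and over 8 pools the gene did not reach the filter. Over 7 pools Sprr2a1 reached it only through the TCDD pools, so that difference was built into its selection. Sprr2a2, another copy below the filter, had 21, 15 and 28 read pairs in TCDD replicates 2 to 4 and 1 in TCDD replicate 1, against 3, 1, 3 and 1 in the vehicle pools.

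Levels of these 3 copies are uncertain. Of all 50-base stretches of their exons, 96.3% in Sprr2a1, 96.5% in Sprr2a2 and 61.1% in Sprr2a3 also occur in another gene, mostly in one another, and pairs that align equally well to several places were not counted. Their RefSeq promoter windows were identical in 300 of 300 bases between Sprr2a1 and Sprr2a2, and in 272 of 272 bases between either and Sprr2a3 once shifted by 28 bases. The counts of all 3 copies are therefore incomplete, to an extent that was not measured.

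Sprr3, known from internal stratified epithelia such as the esophagus, had 3.23, 5.31 and 4.02 CPM in TCDD replicates 2 to 4 and 1.41 CPM in TCDD replicate 1, against 1.37, 4.09, 1.53 and 1.92 CPM in vehicle replicates 1 to 4. The groups overlapped through vehicle replicate 2. The corresponding log2 fold change was 0.90 ± 0.344 (SE, edgeR adjusted p = 0.0829), and without vehicle replicate 2 it was 1.37 (edgeR adjusted p = 0.00202). Over 8 pools it was 0.65 ± 0.426 (SE, edgeR adjusted p = 0.362). Sprr2g had 1.19, 1.83 and 0.759 CPM in TCDD replicates 2 to 4 and 1.85 CPM in TCDD replicate 1, against 1.89, 0, 1.30 and 1.92 CPM in the vehicle pools. Its groups overlapped fully, with a log2 fold change of −0.04 ± 0.754 (SE, edgeR adjusted p = 0.977), and 0.12 ± 0.655 over 8 pools (edgeR adjusted p = 0.929). Sprr2f had 6, 12 and 5 read pairs in TCDD replicates 2 to 4 and 0 in TCDD replicate 1, against 4, 0, 0 and 4 in the vehicle pools. Sprr2h had 2, 3 and 1 read pairs in TCDD replicates 2 to 4 and 0 in each other pool. The other Sprr genes had at most 4 read pairs in a pool, and 4 of the 17 (Sprr2c-ps, Sprr2d, Sprr2e and Sprr2i) had 0 in every pool.

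The Lce family was nearly silent. Of its 21 genes, 15 had 0 read pairs in all 8 pools, and 5 more had at most 5 read pairs in a pool. A count of 0 allows up to 3 read pairs in a library, or 0.105 to 0.134 CPM over these pools. Lce6a was the 1 tested member, with 1.83, 1.78 and 2.05 CPM in TCDD replicates 2 to 4 and 1.45 CPM in TCDD replicate 1, against 0.701, 0.289, 0.307 and 0.399 CPM in the vehicle pools. All 4 TCDD pools lay above all vehicle pools, and TCDD replicate 1 lay close to its group. This gave a log2 fold change of 2.13 ± 0.324 (SE, edgeR adjusted p = 0.000301), and 2.05 ± 0.307 over 8 pools (edgeR adjusted p = 0.00143). Lce6a reached the filter only through the TCDD pools, so this difference was built into its selection. Lce1 and Lce3 genes other than Lce1m, which shares 0%, have 9.12% to 49.3% of their 50-base stretches in other genes too, so a few pairs may have gone uncounted.

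All 4 tested fused-type S100 genes rose, where 11.9% of all tested genes did, while filaggrin itself was not detected. Over 8 pools 3 of the 4 rose, against 7.41% of all tested genes. Crnn, a protein of squamous epithelia such as the esophagus, had 25.9, 34.7 and 23.4 CPM in TCDD replicates 2 to 4 and 14.4 CPM in TCDD replicate 1, against 3.47, 3.36, 3.07 and 3.23 CPM in the vehicle pools. The vehicle pools were tightly grouped and no TCDD pool overlapped them. Its log2 fold change was 3.09 ± 0.151 (SE, edgeR adjusted p = 1.39e-08, TREAT adjusted p = 5.31e-08), and 2.91 ± 0.244 over 8 pools (edgeR adjusted p = 8.76e-05).

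Hrnr, a filaggrin-like repeat protein, had 9.08, 8.70 and 8.31 CPM in TCDD replicates 2 to 4 and 1.59 CPM in TCDD replicate 1, against 0.631, 1.34, 0.767 and 1.05 CPM in the vehicle pools. TCDD replicate 1 was above the highest vehicle pool but far below its own group. The log2 fold change was 3.19 ± 0.223 (SE, edgeR adjusted p = 3.97e-07), and 2.87 ± 0.514 over 8 pools (edgeR adjusted p = 0.00615). Rptn, an envelope precursor with glutamine-rich repeats, had 3.23, 3.75 and 3.60 CPM in TCDD replicates 2 to 4 and 1.498 CPM in TCDD replicate 1, against 1.30, 0.904, 1.04 and 0.798 CPM in the vehicle pools. The groups did not overlap, with TCDD replicate 1 just above vehicle replicate 1. In edgeR the log2 fold change was 1.80 ± 0.235 (SE, edgeR adjusted p = 8.50e-05), and 1.58 ± 0.304 over 8 pools (edgeR adjusted p = 0.00538).

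Tchh, a protein of the inner root sheath of hair, had 43.5, 34.2 and 32.5 CPM in TCDD replicates 2 to 4 and 27.8 CPM in TCDD replicate 1, against 21.5, 27.6, 24.4 and 30.3 CPM in the vehicle pools. TCDD replicate 1 lay among the vehicle pools. The fitted log2 fold change was 0.51 ± 0.129 over 7 pools (SE, edgeR adjusted p = 0.0121, TREAT adjusted p = 1) and 0.42 ± 0.143 over 8 pools (edgeR adjusted p = 0.0767). Without TCDD replicate 2 the adjusted p was 0.0570. Flg and Tchhl1 had 0 read pairs in all 8 pools, and Flg2 had 1 read pair over TCDD replicates 2 to 4 and 0 in TCDD replicate 1, against 3 over the vehicle pools. Crct1, a cysteine-rich gene of the cluster, had 5 read pairs over TCDD replicates 2 to 4 and 0 in TCDD replicate 1, against 9 over the vehicle pools.

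**Figure D3:**
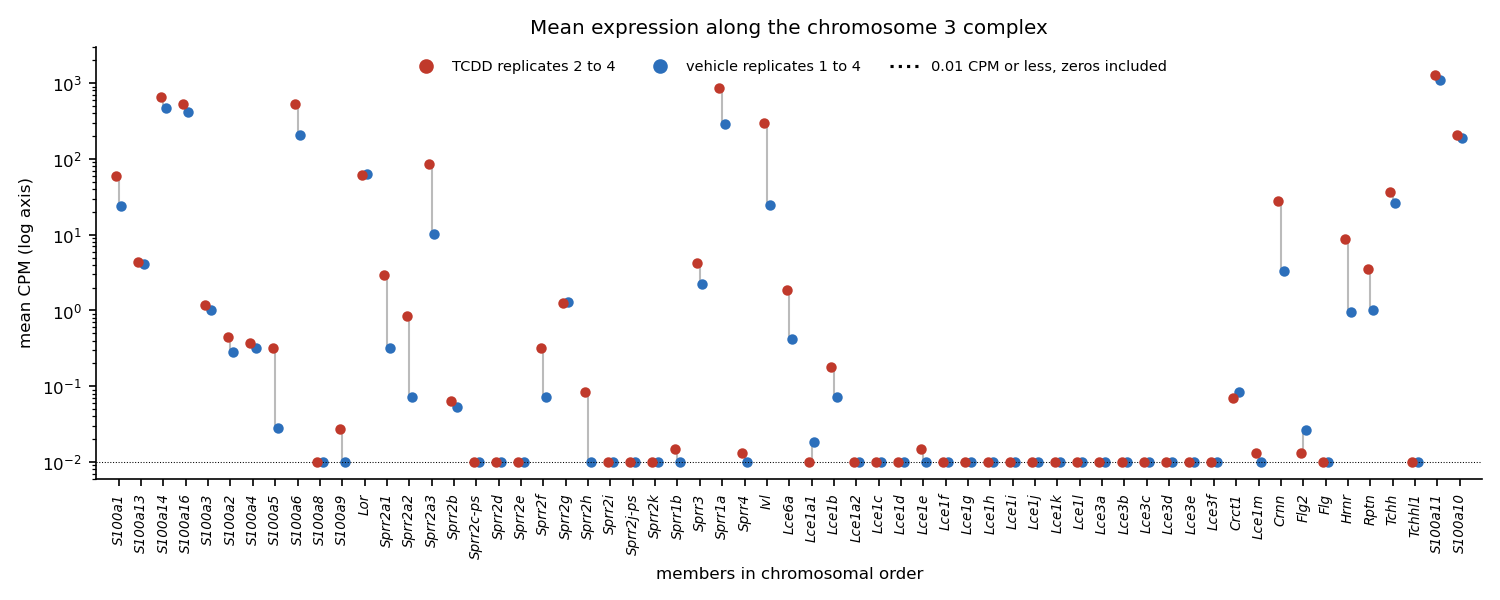
Mean level (y axis, CPM, log axis, levels of 0.01 or less drawn on the dotted line) of all 61 members in their order along chromosome 3 (x axis), for TCDD replicates 2 to 4 (red) and vehicle replicates 1 to 4 (blue). Most of the run from Lce1a1 to Lce1m lies on or near the dotted line in both groups, between Ivl and Lce6a on one side and Crnn on the other.

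The S100a genes held the most abundant members. Of 13 genes, 8 were tested, 5 rose and 3 did not pass, and TREAT called 2 (S100a6 and S100a1). Among all tested genes, 11.9% were called higher, and 2.59% by TREAT. Over 8 pools 5 of 8 S100a genes rose and TREAT called 0, against 7.41% and 0.925% of all tested genes. S100a6, which encodes calcyclin, had 498, 535 and 551 CPM in TCDD replicates 2 to 4 and 222 CPM in TCDD replicate 1, against 182, 193, 236 and 207 CPM in the vehicle pools. TCDD replicate 1 lay within the vehicle range. The log2 fold change was 1.37 ± 0.0856 (SE, edgeR adjusted p = 1.53e-07), and 1.15 ± 0.267 over 8 pools (edgeR adjusted p = 0.0273).

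S100a1, best known from heart and skeletal muscle, had 65.5, 50.1 and 61.9 CPM in TCDD replicates 2 to 4 and 25.4 CPM in TCDD replicate 1, against 22.9, 19.8, 25.1 and 28.5 CPM in the vehicle pools. Here too TCDD replicate 1 lay within the vehicle range. This gave a log2 fold change of 1.30 ± 0.122 (SE, edgeR adjusted p = 9.31e-06), and 1.09 ± 0.276 over 8 pools (edgeR adjusted p = 0.0355).

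S100a14 and S100a16, neighbouring genes made in many epithelia, rose by less. S100a14 had 657, 718 and 620 CPM in TCDD replicates 2 to 4 and 509 CPM in TCDD replicate 1, against 417, 469, 483 and 482 CPM in the vehicle pools, with a log2 fold change of 0.53 ± 0.0758 (SE, edgeR adjusted p = 0.000189). S100a16 had 508, 580 and 490 CPM in TCDD replicates 2 to 4 and 470 CPM in TCDD replicate 1, against 371, 447, 442 and 400 CPM in the vehicle pools, with a log2 fold change of 0.35 ± 0.0836 (SE, edgeR adjusted p = 0.00806). For both genes the lowest TCDD pool exceeded the highest vehicle pool, and neither passed TREAT (adjusted p = 1). Over 8 pools their adjusted p was 0.0107 for S100a14 and 0.0282 for S100a16 (edgeR).

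S100a11, an envelope-associated protein and the most abundant member, had 1246, 1370 and 1237 CPM in TCDD replicates 2 to 4 and 1246 CPM in TCDD replicate 1, against 1009, 1207, 1060 and 1060 CPM in vehicle replicates 1 to 4. The groups were separate but close, and vehicle replicate 2 lay just under the lowest TCDD pool. Its log2 fold change was 0.25 ± 0.0747 (SE, edgeR adjusted p = 0.0267), and 0.24 ± 0.0684 over 8 pools (edgeR adjusted p = 0.0361). The call was lost without TCDD replicate 3 (adjusted p = 0.102), TCDD replicate 4 (0.0539), vehicle replicate 1 (0.0816), vehicle replicate 3 (0.0918) or vehicle replicate 4 (0.0653). Of its 50-base stretches 41.1% also occur in genes elsewhere in the genome, so its count may be incomplete.

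S100a10, the partner of annexin A2, had 196, 231 and 202 CPM in TCDD replicates 2 to 4 and 186 CPM in TCDD replicate 1, against 172, 210, 193 and 183 CPM in the vehicle pools. The groups overlapped (log2 fold change 0.15 ± 0.0841 SE, edgeR adjusted p = 0.236, and 0.425 over 8 pools). S100a3 (log2 fold change 0.22 ± 0.349 SE, edgeR adjusted p = 0.708) and S100a13 (0.10 ± 0.181 SE, edgeR adjusted p = 0.755) did not pass either, nor over 8 pools (edgeR adjusted p = 0.914 for S100a3 and 0.741 for S100a13). In TCDD replicate 1 S100a3 had 0.176 CPM, below the lowest vehicle pool at 0.455 CPM, and S100a13 had 4.36 CPM, within the vehicle range. Among those below the filter, S100a5 had 7, 4 and 13 read pairs in TCDD replicates 2 to 4 and 3 in TCDD replicate 1, against 0, 1, 1 and 1 in the vehicle pools. S100a2 had 32 read pairs over TCDD replicates 2 to 4 and 0 in TCDD replicate 1, against 31 over the vehicle pools. S100a4 had 28 over TCDD replicates 2 to 4 and 5 in TCDD replicate 1, against 35 over the vehicle pools, and 51.7% of its exon sequence overlaps another gene on the same strand, so its count is a lower estimate.

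S100a8 and S100a9 encode the calprotectin subunits, which neutrophils make in bulk and inflamed keratinocytes induce. S100a8 had 0 read pairs in all 8 pools, and S100a9 had 0, 1 and 1 in TCDD replicates 2 to 4 and 0 in the other pools. The 9 neutrophil markers summed to 0.341 to 0.677 CPM in TCDD replicates 2 to 4 and 0 in TCDD replicate 1, against 0 to 0.145 CPM in the vehicle pools, and Ngp, Mpo, Elane, Mmp8 and Retnlg were at 0 throughout.

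Per kilobase of exon, S100a11 stood highest with 2513 CPM with TCDD and 2121 CPM with vehicle. Sprr1a came next in TCDD pools with 1086 CPM, against 363 CPM in vehicle pools. S100a6 had 386 CPM with TCDD and 149.7 CPM with vehicle, S100a14 had 385 CPM with TCDD and 268 CPM with vehicle, and S100a16 had 325 CPM with TCDD and 257 CPM with vehicle. The 10 genes called by TREAT ran from S100a1 at one end of the cluster, through Sprr2a1, Sprr2a3, Sprr1a, Ivl and Lce6a, to Crnn, Hrnr and Rptn, so that genes that rose stood on both sides of the silent Lce run, with S100a6 near the first end. The members span 3.054 Mb (GRCm38), with 37 on the plus strand and 24 on the minus strand, and the widest gap between them (1384.55 kb) lies between S100a9 and Lor.

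TCDD replicate 1 differed from the other TCDD pools gene by gene. Of the 14 members that rose over 7 pools, it lay above every vehicle pool for 10, and among the vehicle pools for S100a6, S100a1, Sprr2a1 and Tchh. It lay below the mean of the other 3 TCDD pools for each of the 14, and for S100a11 it lay within their range. Markers of mesenchyme, smooth muscle and endothelium were higher in this pool than in the other TCDD pools. The 11 mesenchyme markers summed to 78.1 to 83.3 CPM in TCDD replicates 2 to 4 and 154 CPM in TCDD replicate 1, against 137 to 196 CPM in the vehicle pools. Of these, 6 of the 8 tested fell over 7 pools but 2 of 8 over 8 pools (11.2% and 6.00% of all tested genes). Pdgfrb, among the 6 but not the 2, had 0.0797, 0.134 and 0.0379 CPM in TCDD replicates 2 to 4 and 0.881 CPM in TCDD replicate 1. Its vehicle pools had 0.806, 1.74, 0.230 and 1.63 CPM. Pdgfrb reached the filter over 7 pools only through the vehicle pools, so its difference was built into its selection. The 5 smooth muscle markers summed to 1.08 to 1.74 CPM in TCDD replicates 2 to 4 and 5.59 CPM in TCDD replicate 1, against 2.61 to 5.42 CPM in the vehicle pools. The 5 endothelium markers summed to 0.341 to 0.982 CPM in TCDD replicates 2 to 4 and 4.93 CPM in TCDD replicate 1, against 0.771 to 1.496 CPM in the vehicle pools. The 5 urothelium markers (Upk1a, Upk1b, Upk2, Upk3a, Krt20) summed to 2905 to 3534 CPM in TCDD replicates 2 to 4 and 1816 CPM in TCDD replicate 1, against 1244 to 1589 CPM in the vehicle pools, and 5 of 5 rose over 7 and over 8 pools. The 10 leukocyte and macrophage markers summed to 29.2 to 46.2 CPM in TCDD replicates 2 to 4 and 25.6 CPM in TCDD replicate 1, against 18.6 to 32.5 CPM in the vehicle pools. Of these, 9 were tested over 7 pools, 3 rose (Cd68, C1qa and Lyz2, named with their values known) and 0 fell, and over 8 pools 1 of 8 rose and 0 fell. For both the urothelium and the leukocyte counts, the share of all tested genes called higher was 11.9% over 7 pools and 7.41% over 8 pools. The part of these cell populations in the levels of the members was not tested.

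**Figure D4:**
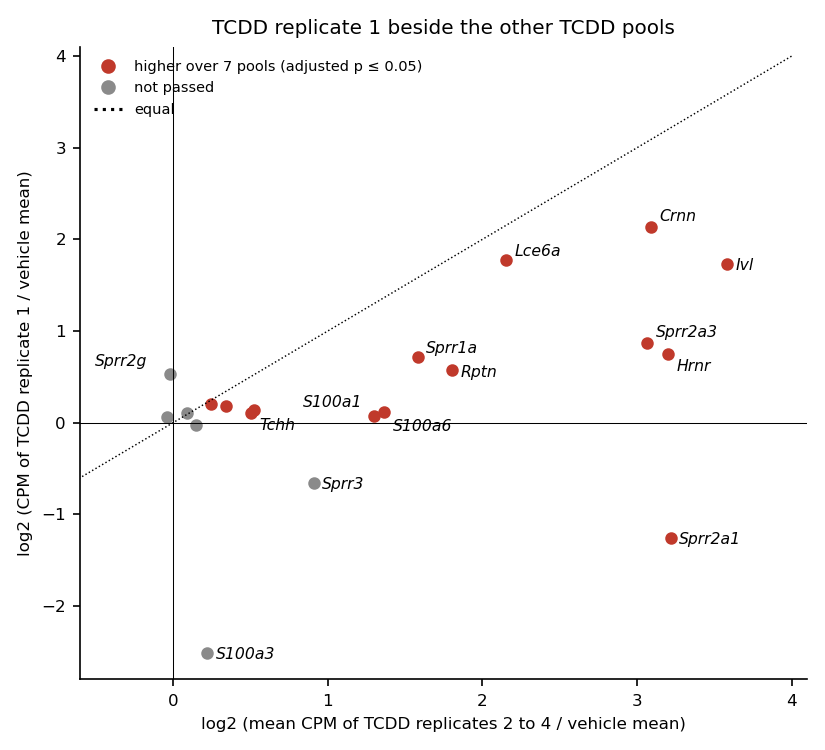
Each tested member by the log2 ratio of the mean of TCDD replicates 2 to 4 to the vehicle mean (x axis) and of TCDD replicate 1 to the vehicle mean (y axis), red for the 14 genes that rose over 7 pools and grey for the 6 others, with a dotted line where both ratios are equal. All red points lie under the dotted line, and S100a6 and S100a1 lie near 0 on the y axis.

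Envelope and other keratinocyte differentiation genes outside the chromosome 3 cluster were read from a list of 16, of which 13 were tested. Of these 13, 11 rose, 0 fell and 2 did not pass, and 8 rose over 8 pools. Tgm3, among the 11 but not the 8, had 15.1, 7.27 and 2.58 CPM in TCDD replicates 2 to 4 and 0.573 CPM in TCDD replicate 1. Its vehicle pools had 1.72, 0.108, 0.269 and 0.435 CPM. Tgm3 would not have reached the filter without the TCDD pools, so its difference was built into its selection. Among all tested genes, 11.9% were called higher and 11.2% lower over 7 pools, and 7.41% and 6.00% over 8 pools. This list was chosen with earlier results of these data known. The listed genes that did not pass, named with their values known, were Tgm1 (log2 fold change 0.23 ± 0.0842 SE, edgeR adjusted p = 0.0662) and Casp14 (−0.50 ± 0.216 SE, edgeR adjusted p = 0.116). The 3 with the smallest adjusted p were Krt1, Dmkn and Sbsn. Krt1, the keratin of suprabasal skin cells, had 410, 396 and 357 CPM in TCDD replicates 2 to 4 and 489 CPM in TCDD replicate 1, against 60.5, 78.1, 65.9 and 56.7 CPM in the vehicle pools (log2 fold change 2.57 ± 0.102 SE, edgeR adjusted p = 2.54e-09, and 4.79e-07 over 8 pools). TCDD replicate 1 was the highest pool for Krt1, whereas it was the lowest TCDD pool for Ivl. Dmkn, a secreted protein of differentiating keratinocytes, averaged 22.1 ± 1.80 CPM in TCDD pools (SD, n = 3) and 4.78 ± 1.02 CPM in vehicle pools (SD, n = 4), and Sbsn, suprabasin, averaged 17.01 ± 1.94 CPM in TCDD pools (SD, n = 3) and 6.95 ± 0.801 CPM in vehicle pools (SD, n = 4). TCDD replicate 1 had 13.9 CPM of Dmkn and 9.73 CPM of Sbsn, each above every vehicle pool and below these TCDD means. Over 8 pools the edgeR adjusted p was 9.51e-05 for Dmkn and 0.00244 for Sbsn. The 5 suprabasal epidermis markers share Krt1 and Krt10 with the list above, so the 2 counts overlap. They summed to 442 to 496 CPM in TCDD replicates 2 to 4 and 616 CPM in TCDD replicate 1, against 104 to 132 CPM in the vehicle pools. Krt1 made up most of these sums. Of the 4 tested, 3 rose and Krt2 did not pass, with a mean of 22.5 ± 3.32 CPM in TCDD pools (SD, n = 3) and 27.4 ± 3.17 CPM in vehicle pools (SD, n = 4). For Krt2 the edgeR adjusted p was 0.109, with a log2 fold change of −0.28.

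Of 20 regulators of epidermal differentiation, 19 were tested, 7 rose, 1 fell and 11 did not pass (6 rose and 0 fell over 8 pools). The shares of all tested genes were 11.9% higher and 11.2% lower over 7 pools, and 7.41% and 6.00% over 8 pools. The listed gene that fell, named with its values known, was Tfap2a (log2 fold change −0.57 ± 0.0912 SE, edgeR adjusted p = 0.000411, and 0.247 over 8 pools). The 3 with the smallest adjusted p were Nfe2l2, Prdm1 and Ovol1. Nfe2l2, which encodes the antioxidant regulator NRF2, averaged 220.3 ± 21.8 CPM in TCDD pools (SD, n = 3) and 95.2 ± 6.44 CPM in vehicle pools (SD, n = 4), with a log2 fold change of 1.22 ± 0.0826 (SE, edgeR adjusted p = 3.51e-07). Prdm1, the repressor BLIMP1 of terminally differentiating epithelia, averaged 8.12 ± 0.279 CPM in TCDD pools (SD, n = 3) and 1.09 ± 0.465 CPM in vehicle pools (SD, n = 4), with a log2 fold change of 2.89 ± 0.252 (SE, edgeR adjusted p = 2.83e-06). Ovol1, a zinc finger factor of suprabasal cells, averaged 76.6 ± 2.76 CPM in TCDD pools (SD, n = 3) and 48.7 ± 4.03 CPM in vehicle pools (SD, n = 4), with a log2 fold change of 0.66 ± 0.0802 (SE, edgeR adjusted p = 4.54e-05). TCDD replicate 1 had 196 CPM of Nfe2l2, 2.55 CPM of Prdm1 and 98.1 CPM of Ovol1, each above every vehicle pool, and over 8 pools the edgeR adjusted p was 1.32e-05 for Nfe2l2, 0.00254 for Prdm1 and 0.000602 for Ovol1.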

How the data were processed

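RNA-seq libraries came from 4 TCDD and 4 vehicle pools of UGS epithelium, each on 2 lanes. By the study's methods the authors trimmed the reads, used HISAT2 2.1.0 for alignment to GRCm38.p6 and made the deposited counts with HTSeq 0.12.4, which leaves out pairs that align to several places. These losses fall on near-identical genes such as the Sprr2a copies. Table lines that name no gene were left out, and they held 17.4% to 20.1% of each column's pairs. Lanes of a pool differed by about their sampling noise (chi-square per gene 0.995 to 1.03) and were averaged. The authors' deposited comparison tables hold their own fold changes and p-values and were not used.

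Genes were filtered with filterByExpr (minimum count 10, minimum total 15), scaled by TMM, and tested with edgeR 4.0.16 in R 4.3.3 (limma 3.58.1) by the robust legacy quasi-likelihood F-test and by TREAT against 1.5-fold. The Benjamini-Hochberg adjustment ran across every tested gene, and calls were made at 0.05. The main fit held 7 pools, without TCDD replicate 1. Standard errors come from the F statistic. DESeq2 1.42.0, other scalings, no filter, summed lanes, a replicate block and leaving out each pool were alternatives. Tests were tried on simulated data. Levels in CPM are scaled over all 8 pools. Exon lengths, positions and shared 50-base stretches come from GENCODE M21 (GRCm38), and promoter windows from RefSeq (GRCm38.p6). Protein sequences were not used here. The members, gene lists and motifs were chosen with earlier results of these data known. Values in every pool are given, within each role, for up to 6 tested members with the smallest adjusted p and the 2 with the highest CPM, and for listed genes up to 3 with the smallest adjusted p. Intervals and limits for counts of 0 cover counting error only.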

Additional observations from a re-analysis of the deposited data

Results flagged for a closer look

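In 3 of 36 groups of 4 pools, 1 pool stood apart from the other 3, where chance alone does so in about 1 of 20 groups. The groups are genes measured in the same pools and are not independent, so this rate cannot weigh the count. The pools concerned are TCDD replicate 1 for S100a6 (222 CPM, against 498 CPM in the nearest TCDD pool), TCDD replicate 1 for Hrnr (1.59 CPM, against 8.31 CPM in the nearest TCDD pool) and TCDD replicate 3 for S100a11 (1370 CPM, against 1246 CPM in the nearest TCDD pool). The first pool is the one the study left out.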

How the results depend on the processing

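The count of members higher with TCDD was 14 and stayed between 12 and 17 under every alternative run, and 0 members were lower in each. With all 8 pools, TREAT called 4 members higher in place of 10, and 1041 genes were higher and 843 lower among all genes, in place of 1688 and 1588. Leaving out each pool in turn gave 13 to 15 members higher and 0 lower, 10 to 11 higher and 0 lower by TREAT, and 1189 to 1633 genes higher and 1061 to 1639 lower among all genes. Without the low-count filter 17 members were called higher, adding Sprr3 (adjusted p = 0.00186), Sprr2a2 and S100a5, and DESeq2 called 16 (Sprr3 adjusted p = 0.0446). Replicate numbers did not pair the pools (correlations of same-numbered pools −0.141, −0.0727 and −0.0559). With the replicate block 13 members were higher and 0 lower, 10 by TREAT, and 1219 genes higher and 1205 lower. The S100a11 call was lost with the block (adjusted p = 0.0856), with upper-quartile scaling (0.0576) and with no scaling factors (0.0654). No named member with a call changed direction. Scaling moved the median of all genes by at most 0.039 on the log2 scale. Members under 10 read pairs are beyond what this depth can compare, and 3 against 4 pools limit the precision of each fold change.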

Other observations

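Between the first and the last member, 60 other annotated genes lie on chromosome 3, of which 26 had any count and 3 were tested. The noncoding RNA gene Gm35439 was higher with TCDD over 7 pools (log2 fold change 0.47 ± 0.160 SE, edgeR adjusted p = 0.0460) and did not pass over 8 pools (adjusted p = 0.104). Pglyrp3, which encodes a peptidoglycan recognition protein, had a log2 fold change of −0.62 ± 0.235 (SE, edgeR adjusted p = 0.0737), and the noncoding RNA gene Gm37245 had 0.28 ± 0.311 (SE, edgeR adjusted p = 0.576).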
